A study of Rattus norvegicus with 6 samples.

Results

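The ETS transcription factors Etv1, Etv4, Etv5, Etv6, Ets1, Ets2, Elk1, Elk3, Elf1 and Gabpa were taken by gene symbol from the deposited count tables of rat Schwann cells. All 10 genes were among the 17327 gene symbols counted, and all 10 passed the filter on low counts that left 9740 genes for testing. Schwann cells are the glia of peripheral nerves. Soluble Neuregulin1 (NRG1) acts on them through ErbB receptors. Primary cells from the sciatic nerves of adult female Wistar rats were grown to confluence and starved for 18 h in DMEM with 2% FBS and 10 μM forskolin, an agent that raises cAMP. For the next 6 h they received either recombinant NRG1β1 at 10 nM in the same medium (3 NRG1 samples) or an equal volume of the buffer of the ligand, PBS with bovine serum albumin (3 mock samples). Mock cells therefore also carried forskolin and serum, and both groups had been expanded before starvation in a medium with a neuregulin, given as glial growth factor in the labels and as recombinant NRG1β1 in the methods of the study. Each of the 3 independent cell preparations, numbered 1, 2 and 3 in the titles, gave 1 mock and 1 NRG1 sample.

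ETS proteins share a DNA-binding domain that recognises a GGAA core, and many of them are end points of the RAS-ERK kinase cascade, which ErbB receptors activate. Etv1 (ER81), Etv4 (PEA3) and Etv5 (ERM) form the PEA3 subfamily, whose genes are themselves switched on by ERK signalling in many cell types. Elk1 and Elk3 are ternary complex factors that bind DNA together with serum response factor, Ets1 and Ets2 are activators that ERK phosphorylates, Gabpa is the DNA-binding subunit of GABP, Elf1 is a broadly expressed activator and Etv6 (TEL) is a repressor. The question here was which of these factors changed at the level of their own transcripts 6 h after NRG1.

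Counts on genes ranged from 6821590 to 15475018 per library, so that 3 counts, taken as the smallest level that could be told from 0, corresponded to between 0.194 and 0.44 CPM, the count scaled to a library of 1000000 reads on genes. Both samples of replicate 1 stood apart from the other 4 on the first principal component, which held 68% of the variance. They also carried transcripts of other cell types. The fibroblast gene Dcn was at 594 CPM in mock and 413 CPM in NRG1 of replicate 1 and had 0 counts in the other 4 samples, Pdgfra was at 846 and 800 CPM against at most 1.62 CPM, and Acta2, a gene of smooth muscle cells and myofibroblasts, at 1763 and 1784 CPM against at most 4.54 CPM. Other genes of these lists were not limited to replicate 1. Col1a1 was at 27470 and 31030 CPM in replicate 1 and between 13490 and 21290 CPM in replicates 2 and 3, and Pdgfrb was at 1179 and 1197 CPM against between 223 and 399 CPM. Col3a1 was at 21780 and 22460 CPM in replicate 1, at 830 and 450.9 CPM in mock replicates 2 and 3 and at 280.2 and 170.1 CPM in NRG1 replicates 2 and 3. The summed level of the 6 fibroblast markers was 50700 and 54700 CPM in replicate 1 and between 13800 and 22100 CPM in replicates 2 and 3. The Schwann cell markers Sox10, Ngfr and S100b were present in every sample, but Sox10 was at 385 (mock) and 462 CPM (NRG1) in replicate 1 and between 1069 and 1259 CPM in replicates 2 and 3, and Ngfr was at 1007 and 1257 CPM against between 2317 and 2739 CPM. Endothelial Pecam1, Cdh5 and Emcn, the leukocyte gene Ptprc and the T cell genes Cd3e and Cd2 were at 0 in all 6 samples. Among the other macrophage markers, Cd68 was between 1.95 and 3.68 CPM and Csf1r between 0.52 and 1.13 CPM in all 6 samples. Cd14 was at 7.54 (mock) and 5.16 CPM (NRG1) in replicate 1 against at most 0.339 CPM, and Aif1 and Itgam had at most 1 count in any sample. In bulk RNA, fewer cells of a type and less RNA per cell cannot be told apart. For this reason the members are also given without replicate 1 wherever that moved a call.

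Of the 10 ETS transcripts, Etv5 was the one that passed the test. It rose 3.14-fold (95% interval 2.54 to 3.87). Etv4 had a fitted fold of 2.06 and lay directly at the threshold, and Etv1, of the same subfamily, pointed the other way with a fold of 0.682. The test was the quasi-likelihood test of edgeR, blocked by replicate number. A gene was called where its p, adjusted over all genes tested, was 0.01 or less. By this rule 1 of the 10 ETS genes was higher and 0 were lower in NRG1, while 6.31% of all genes tested were higher and 5.51% lower. One member in 10 is thus near the background share. The count of called ETS genes was 1 with robust empirical Bayes and 2 with DESeq2. At an unadjusted p under 0.05 there were 7 members, beside 35.7% of all genes tested. With an absolute log2 fold change over 1 as a further condition, Etv5 alone passed in this edgeR fit, against a background of 1.56% of genes higher and 1.91% lower. With DESeq2, the tool of the study, Etv4 passed both conditions as well, at a log2 fold change of 1.18 (adjusted p = 0.00217). DESeq2 was run here on the genes left by the filter above and without its own filter, whereas the study used its default settings. Etv4 also passed both conditions in edgeR with RLE normalization, with no filter on low counts and without replicate 1.

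**Figure D1:**
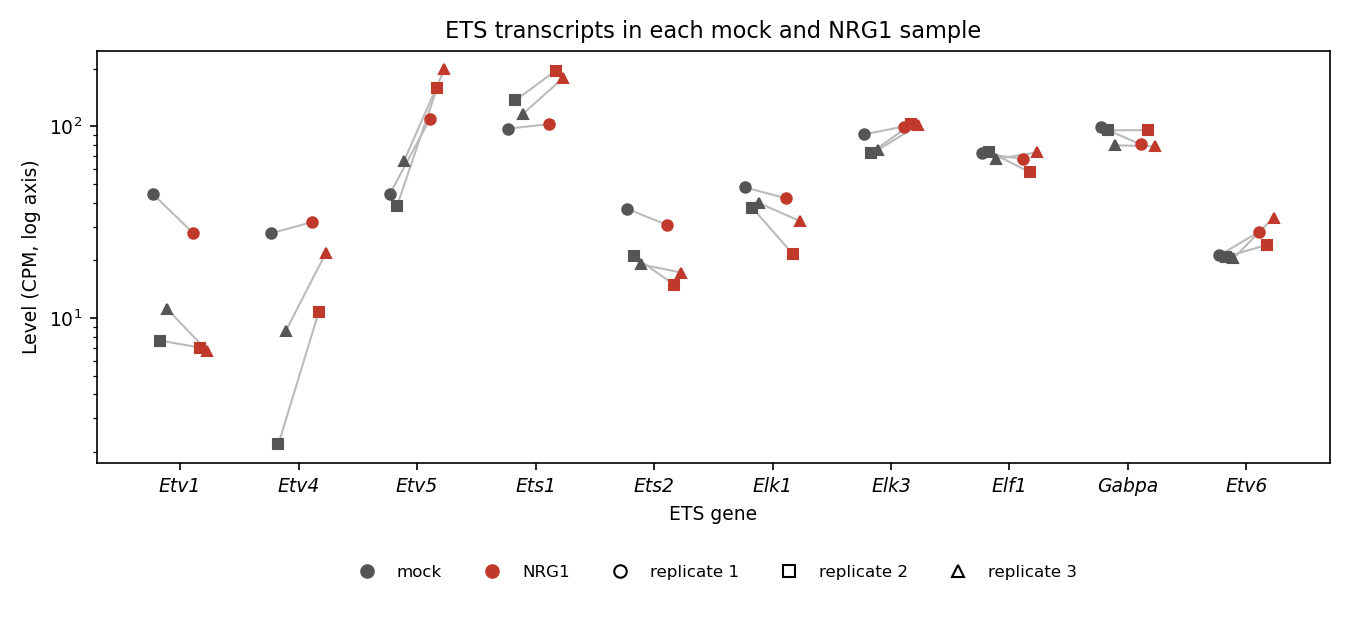
Level of the 10 ETS transcripts in CPM (log axis) in each sample, with mock in grey, NRG1 in red, a marker shape for each replicate and a line joining the 2 samples of one cell preparation. Etv5 rose from between 38.3 and 65.9 CPM in mock to between 109.5 and 198 CPM in NRG1, while Etv1 and Etv4 differed between replicates by as much as between conditions.

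Etv5, an activator of the PEA3 subfamily, was at 44.3, 38.3 and 65.9 CPM in mock replicates 1, 2 and 3, from 341, 261 and 821 counts. In NRG1 replicates 1, 2 and 3 it was at 109.5, 159 and 198 CPM, from 849, 1407 and 3060 counts. The groups did not overlap, since the lowest NRG1 sample lay above the highest mock sample, which was the case for 9% of all genes tested. The mean level was 49.5 ± 14.5 CPM in mock and 155 ± 44.2 CPM in NRG1 (SD, n = 3 each). The log2 fold change was 1.65 (standard error 0.14, edgeR adjusted p = 5.24e-06), and the log2 ratios within pairs 1, 2 and 3 were 1.31, 2.03 and 1.61. By p-value Etv5 was in position 19 of the 9740 genes. Without replicate 1, the replicate with the fibroblast transcripts, its log2 fold change was 1.81 (standard error 0.19, edgeR adjusted p = 7.97e-20). That fit rested on fewer pairs and had the larger standard error, so its smaller p does not mark a more precise estimate. Fitted without the pairing by replicate number, the log2 fold change stayed at 1.65 but the edgeR adjusted p was 0.163, and no gene passed in that fit.

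Etv4, the founding member of the PEA3 subfamily, differed widely between the mock cultures. It was at 27.7, 2.2 and 8.51 CPM in mock replicates 1, 2 and 3, a 12.6-fold range, and the value in mock replicate 2 rested on 15 counts. In NRG1 replicates 1, 2 and 3 it was at 31.6, 10.7 and 21.8 CPM. Both samples of replicate 1 were high, the 2 NRG1 samples of replicates 2 and 3 were above their own mock samples, and the groups overlapped. The log2 ratio was 0.20 in pair 1, 2.17 in pair 2 and 1.36 in pair 3, so that all 3 pairs pointed upward, with a small difference in pair 1. The fit gave a log2 fold change of 1.05 (standard error 0.26, edgeR adjusted p = 0.0102), just over the threshold of 0.01. Without replicate 1 the log2 fold change of Etv4 was 1.67 (standard error 0.27, edgeR adjusted p = 3.03e-08), past the threshold. The standard error was no smaller in that fit on fewer pairs, so the smaller p does not mark a more precise estimate. Etv4 also passed with DESeq2, with RLE in place of TMM normalization and without the filter on low counts, and its adjusted p was 0.0431 with robust empirical Bayes. The high level of Etv4 in replicate 1 occurred beside the Dcn, Pdgfra and Acta2 transcripts given above, and their part in it was not tested.

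Etv1, the remaining PEA3 gene, was at 44.3, 7.62 and 11.2 CPM in mock replicates 1, 2 and 3 and at 27.7, 7.01 and 6.72 CPM in the NRG1 samples of the same numbers. Replicate 1 was again the high one in both conditions, by a factor of up to 5.81 among the mock samples, and the groups overlapped. The log2 ratios in pairs 1, 2 and 3 were -0.66, -0.14 and -0.69. The fitted log2 fold change was -0.55 (standard error 0.17, edgeR adjusted p = 0.0321), with a 95% interval from -0.92 to -0.18, and did not pass. Without replicate 2 the value was -0.68 and passed (edgeR adjusted p = 0.00875), whereas without replicate 1 it was -0.46 (edgeR adjusted p = 0.247). The part of the other cell types of replicate 1 in the level of Etv1 was not tested.

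Taken over the 3 PEA3 genes, the share of the reads that fell on Etv5 was larger in NRG1 than in mock in each pair. The summed level of Etv1, Etv4 and Etv5 was 116, 48.1 and 85.6 CPM in mock replicates 1, 2 and 3 and 169, 177 and 226 CPM in NRG1. Etv5 contributed 38.1%, 79.6% and 77% of these reads in mock and 64.9%, 90% and 87.4% in NRG1. Etv1 went from 38.1%, 15.9% and 13% of the reads in mock to 16.4%, 3.96% and 2.97% in NRG1. The share of Etv4 was 23.8%, 4.57% and 9.94% in mock and 18.7%, 6.07% and 9.65% in NRG1, with no common direction. These are shares of reads, which also depend on transcript length, and an exact permutation test on 3 pairs cannot give a two-sided p below 0.25, so none was run.

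Sequence upstream of the genes is shown for the member that rose (Etv5), for the PEA3 gene that pointed downward (Etv1) and for a member with little change (Gabpa). The windows hold 250 bases before and 50 bases after a start site annotated by RefSeq on the GRCr8 assembly, and 7 of the 10 members had such a window. The 3 windows printed are on the plus strand. Capitals mark matches on either strand. The letters searched were GGAA, the core bound by ETS proteins. Another search used CCAAT, the box bound by the factor NF-Y. The next used GGGCGG, the GC box of Sp1-type factors. A further one used TGACG, the core of the site of cAMP-responsive factors, and the last was for the CArG box of serum response factor. Neighbouring matches can merge into 1 run of capitals.
Etv5, chr11:92113013-92113312: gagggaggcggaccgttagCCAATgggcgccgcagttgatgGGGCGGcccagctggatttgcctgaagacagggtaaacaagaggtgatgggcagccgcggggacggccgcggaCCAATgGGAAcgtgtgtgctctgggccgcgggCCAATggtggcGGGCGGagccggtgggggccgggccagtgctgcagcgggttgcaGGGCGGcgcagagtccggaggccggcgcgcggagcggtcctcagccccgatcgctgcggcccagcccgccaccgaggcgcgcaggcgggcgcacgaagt
Etv1, chr6:61317179-61317478: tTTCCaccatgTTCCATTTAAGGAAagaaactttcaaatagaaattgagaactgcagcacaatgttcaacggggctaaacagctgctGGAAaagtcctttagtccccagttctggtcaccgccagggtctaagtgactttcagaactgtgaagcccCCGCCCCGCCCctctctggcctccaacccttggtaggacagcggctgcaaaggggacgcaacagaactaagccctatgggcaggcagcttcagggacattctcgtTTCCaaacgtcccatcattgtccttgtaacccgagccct
Gabpa, chr11:37375014-37375313: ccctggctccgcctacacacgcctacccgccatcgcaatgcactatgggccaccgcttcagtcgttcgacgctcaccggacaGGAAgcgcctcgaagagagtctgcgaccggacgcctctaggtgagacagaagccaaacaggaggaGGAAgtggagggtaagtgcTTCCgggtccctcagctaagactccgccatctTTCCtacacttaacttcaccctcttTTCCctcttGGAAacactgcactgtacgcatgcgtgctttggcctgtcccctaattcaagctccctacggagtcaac

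The Etv5 window, with 73.3% G and C, held 3 CCAAT and 3 GGGCGG matches but 1 GGAA match, while the Gabpa window held 6 GGAA matches and neither CCAAT nor GGGCGG. At least 3 CCAAT matches occurred in 3.02% and at least 3 GGGCGG matches in 8.97% of the 33469 windows in the table. The Etv1 window held 5 GGAA matches, 2 overlapping GGGCGG matches on the minus strand and a CArG box. The CArG box overlaps 2 of the GGAA matches, and 1.64% of all windows held such a box. GGAA occurs in 95.8% of all windows and says little by itself. The longer ETS motif CCGGAAGT, found in 3.81% of windows, was in none of the 7 member windows. These are matches of letters only, and no binding was measured.

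**Figure D2:**
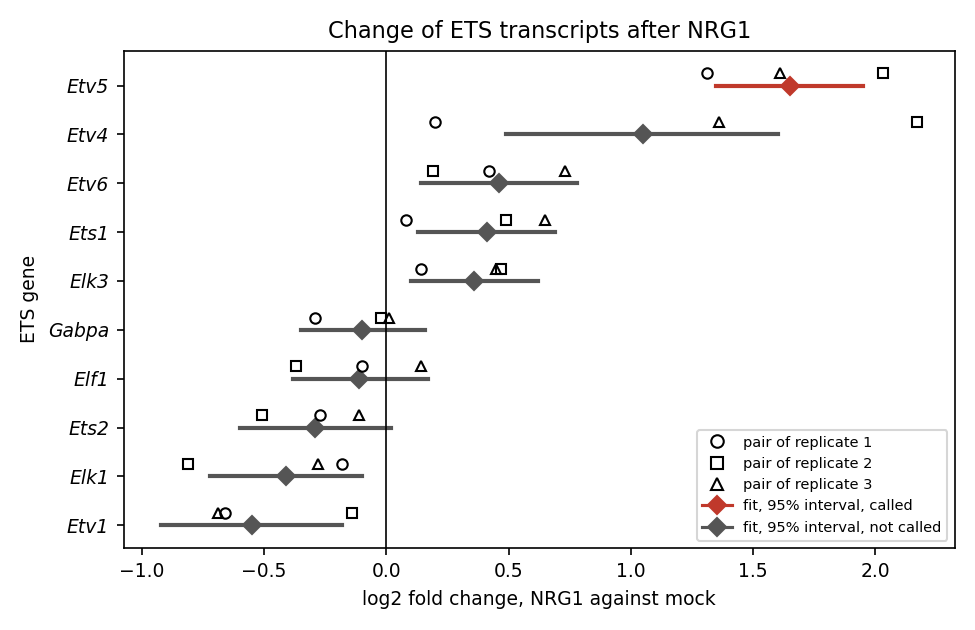
Log2 fold change of each ETS transcript in NRG1 against mock, with diamonds and bars for the edgeR fit and its 95% interval (red for a called gene) and open symbols for the log2 ratio within each replicate pair. Etv5 lay at 1.65 with an interval from 1.35 to 1.95, Etv4 at 1.05 with widely spread pairs, and the other 8 genes between -0.55 and 0.46.

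Ets1 and Ets2 had smaller values than Etv5. Ets1, an activator also known from endothelial cells, was at 97.2, 136 and 116 CPM in mock replicates 1, 2 and 3 and at 102.5, 195 and 178 CPM in NRG1. NRG1 replicate 1 lay within the mock range and the other 2 NRG1 samples above it. The log2 fold change of Ets1 was 0.41 (standard error 0.13, edgeR adjusted p = 0.0339), with pair values of 0.08, 0.49 and 0.65, and it did not pass. Of the 5 endothelial markers, Pecam1, Cdh5 and Emcn were at 0 in every sample, and the summed level of the list, nearly all from Tek, was between 9.09 and 14.8 CPM in mock and between 5.8 and 8.93 CPM in NRG1. Its relative Ets2 was at 37.2, 21 and 19 CPM in mock and 30.6, 14.9 and 17.2 CPM in NRG1, with a log2 fold change of -0.29 (95% interval -0.60 to 0.02, edgeR adjusted p = 0.171).

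The ternary complex factors Elk1 and Elk3 pointed in opposite directions without passing the test. Elk3 (Net), which represses until it is phosphorylated, was at 90.7, 72.6 and 75.3 CPM in mock replicates 1, 2 and 3 and at 99.7, 102.4 and 101.3 CPM in NRG1. The 3 NRG1 samples were nearly level and all lay above the mock samples, at a log2 fold change of 0.36 (standard error 0.12, edgeR adjusted p = 0.0448). Elk1 was at 47.9, 37.5 and 39.7 CPM in mock and at 42.2, 21.6 and 32.1 CPM in NRG1. Its log2 fold change was -0.41 (standard error 0.15, edgeR adjusted p = 0.0564), and the groups overlapped through NRG1 replicate 1.

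Etv6, a repressor best known from blood cell development, was the most even member among the mock samples, at 21.2, 20.8 and 20.5 CPM. In NRG1 replicates 1, 2 and 3 it was at 28.2, 24.1 and 33.4 CPM, above every mock sample. Its log2 fold change was 0.46 (standard error 0.15, edgeR adjusted p = 0.0381) and did not pass. Elf1 and Gabpa showed the least difference. Elf1 was at 71.2 ± 3.19 CPM in mock and 66 ± 7.74 CPM in NRG1 (SD, n = 3), with a 95% interval of the log2 fold change from -0.38 to 0.17. Gabpa, whose complex GABP drives many nuclear genes of mitochondrial proteins, was at 91.2 ± 10.3 and 84.8 ± 9.34 CPM (SD, n = 3), with an interval from -0.35 to 0.16.

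Across the 10 members, 5 were higher in all 3 pairs (Etv4, Etv5, Etv6, Ets1 and Elk3), 3 were lower in all 3 pairs (Etv1, Ets2 and Elk1), and Elf1 and Gabpa had mixed signs. Over all genes tested, 25.9% were higher and 30% lower in all 3 pairs. At a looser adjusted p of at most 0.05, 5 members were higher and 1 was lower, against 11.5% and 11.7% of all genes tested. The 5 were the same 5 genes that were higher in all pairs, and the 1 was Etv1. These numbers depended on the setting, with 3 higher and 0 lower by DESeq2, 4 and 1 without replicate 1, and 3 and 1 without replicate 2. With no filter on low counts they were 5 and 2, and with no replicate block 0 and 0. Without replicate 3 they were 2 and 0, where Etv4 and Etv5 remained. The lower member was Elk1 without replicate 1 (log2 fold change -0.53, edgeR adjusted p = 0.0445) and Etv1 without replicate 2. Besides Etv5, the members whose NRG1 samples all lay above the mock samples were Etv6 and Elk3, which was the case for 9% of all genes tested. For 0 members did all NRG1 samples lie below, against 10.2% of all genes tested. For 6 of the 10 members the ratio of the highest to the lowest mock sample was larger than the fitted change. The share of all genes tested with such a ratio was not computed, and the block by replicate takes differences between preparations out of the test.

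**Figure D3:**
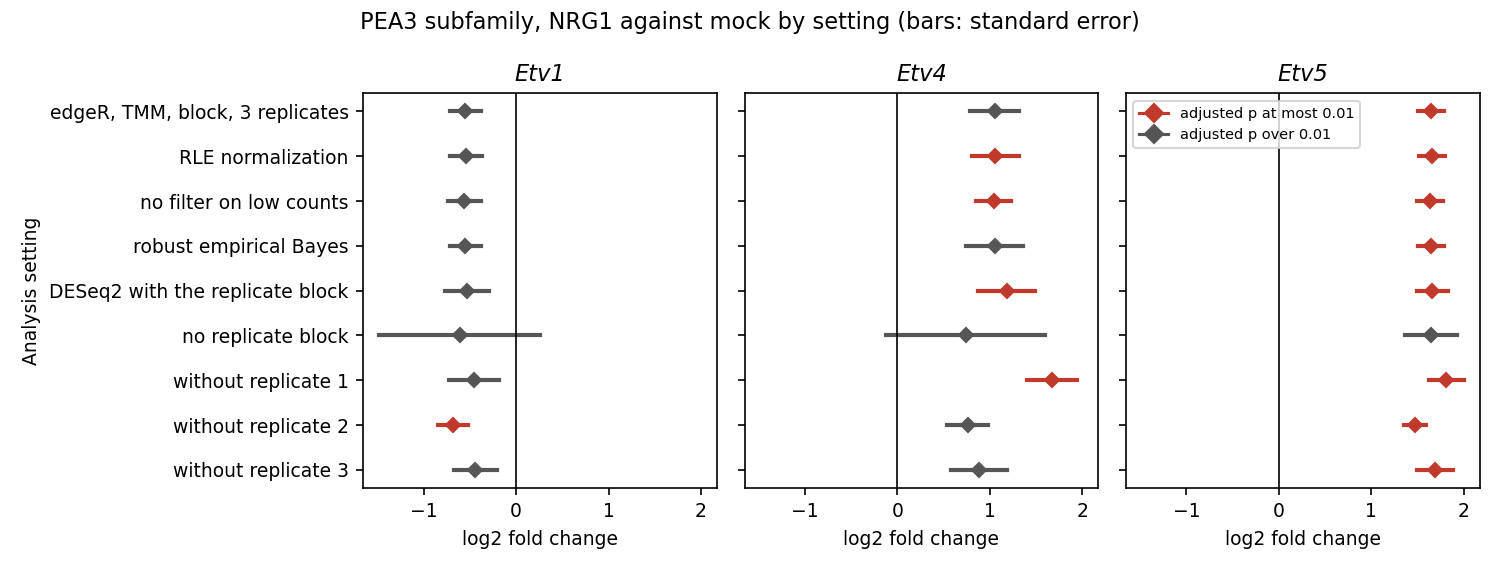
Log2 fold change of Etv1, Etv4 and Etv5 in NRG1 against mock under each analysis setting, with bars for the standard error and red for an adjusted p of at most 0.01. Etv5 kept values between 1.47 and 1.81, Etv4 ranged from 0.74 to 1.67 and was called in 4 of the 8 alternatives, and Etv1 stayed between -0.68 and -0.44.

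Of the 18 other ETS genes looked up, 16 were among the gene symbols and 5 (Etv3, Elk4, Elf2, Elf4 and Erf) had enough counts for the test. None of these 5 passed, with log2 fold changes between -0.19 and 0.23 and a smallest edgeR adjusted p of 0.177. Erf, a repressor that ERK drives out of the nucleus, had the highest value, 0.23 (95% interval -0.02 to 0.48). Of the remaining 11 genes, 4 had 0 counts in all 6 samples and 7 had at most 9 counts over the 6 samples, among them the endothelial factors Erg and Fli1 and the macrophage factor Spi1. Reads on the 26 ETS genes together made up 907, 934 and 950 CPM in mock replicates 1, 2 and 3 and 937, 1090 and 1220 CPM in NRG1. Etv5 supplied between 4.1% and 6.94% of these reads in mock and 11.7%, 14.7% and 16.3% in NRG1 replicates 1, 2 and 3.

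Among 22 partners and regulators of ETS proteins, 12 could be tested, of which 2 were higher and 0 lower, beside 6.31% and 5.51% of all genes tested. Without replicate 1 or without replicate 3 the number higher was 1. Both called genes were corepressors. Their paralogues on the list, Ctbp1 (log2 fold change 0.17, edgeR adjusted p = 0.32) and Tle1 (-0.05, edgeR adjusted p = 0.856), were not called. Ctbp2, of the CtBP family that Elk3 recruits, changed by 0.88 on the log2 scale (standard error 0.13, edgeR adjusted p = 0.000288) and was higher in all 3 pairs. Tle3, a Groucho-type corepressor, had 0.56 (edgeR adjusted p = 0.00574), but without replicate 1 its adjusted p was 0.0243 and without replicate 3 it was 0.0635. Serum response factor (Srf), the partner of Elk1 and Elk3, had a log2 fold change of -0.01 (95% interval -0.29 to 0.26). Rfwd2 (COP1), the ubiquitin ligase that degrades PEA3 proteins, had 0.16 (95% interval -0.10 to 0.42), and Gabpb1, the partner of Gabpa, had -0.06 on between 17 and 51 counts. The medians of the log2 fold changes were 0.13 for the 10 members and 0.05 for these 12 genes, against -0.026 over all genes tested.

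Of the RAS-ERK cascade above the ETS factors, 17 genes were tested, of which 2 were higher and 0 lower, beside 6.31% and 5.51% of all genes tested. The number higher was 1 without replicate 1, 1 without replicate 2 and 0 without replicate 3, and the median log2 fold change was 0.15. Map2k1, which encodes the ERK kinase MEK1, rose by a log2 fold change of 0.59 (standard error 0.12, edgeR adjusted p = 0.00326), though its adjusted p was 0.029 without replicate 3. Rps6ka1, which encodes the ERK-activated kinase RSK1, had 0.51 (edgeR adjusted p = 0.00835). Its adjusted p was 0.0363, 0.0248 and 0.0125 without replicates 1, 2 and 3.

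Of 16 transcripts that ERK signalling is known to induce, 11 were higher and 1 was lower, that is 68.8% and 6.25% of the list beside 6.31% and 5.51% of all genes tested, with a median log2 fold change of 0.96. The list was chosen with earlier results of these data known, so its share is not an independent measure of ERK signalling. Fosl1, an AP-1 subunit, was at a log2 fold change of 1.69 (standard error 0.15, edgeR adjusted p = 8e-06), close to the 1.65 of Etv5. Ccnd1 (cyclin D1) rose by 1.39 and the ERK phosphatase Dusp6 by 1.23, and Dusp4, Phlda1 and the feedback inhibitor Spry2 by 1.15, 1.17 and 0.96, all with edgeR adjusted p of at most 0.000308. The gene of this list that was lower was Egr1, an immediate-early factor, with a log2 fold change of -1.13 (edgeR adjusted p = 0.00711). Egr2, Atf3 and Fos were not in this list, and the study reports them as down-regulated by NRG1. That call of Egr1 was lost with DESeq2 (adjusted p = 0.143), with robust empirical Bayes (0.0995), without replicate 2 (0.0376) and without replicate 3 (0.0353). Spry4, an ERK feedback inhibitor that was chosen after its values were seen, had pair values of 0.15, 2.22 and 1.5, an order like that of Etv4, with a log2 fold change of 1.15 (edgeR adjusted p = 0.0061) and of 1.81 without replicate 1. The call of Spry4 was lost without the replicate block (adjusted p = 0.831), with DESeq2 (adjusted p = 0.105), with robust empirical Bayes (0.153), without replicate 2 (0.0237) and without replicate 3 (0.0107). Without replicate 1, 9 of the 16 genes were higher and 1 lower.

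**Figure D4:**
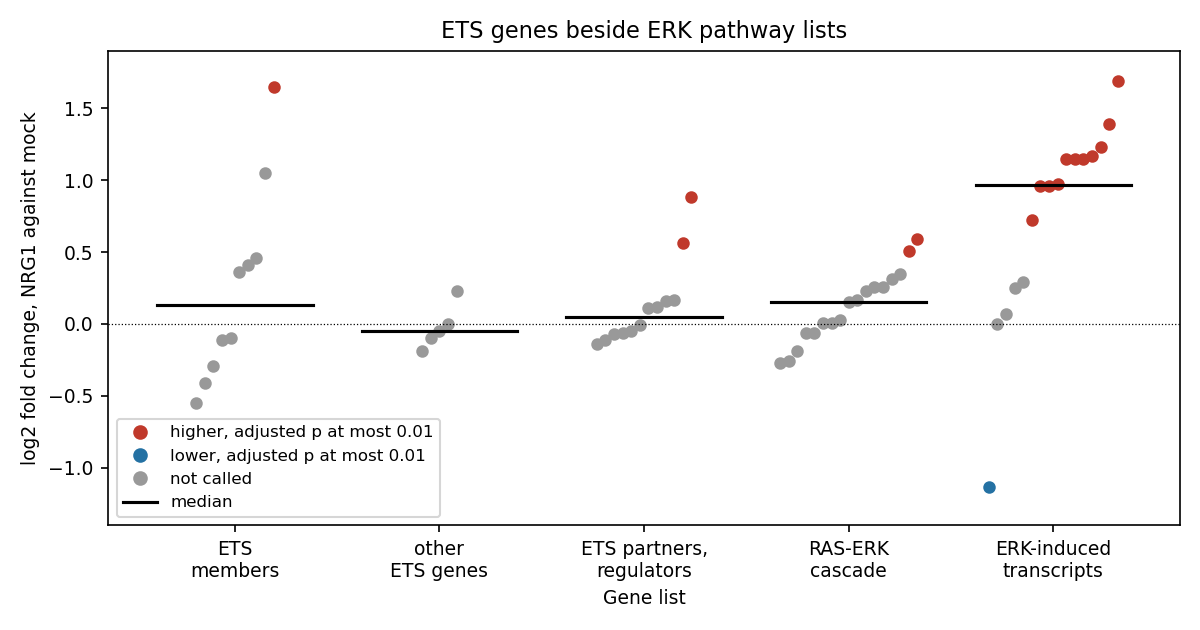
Log2 fold change in NRG1 against mock of the tested genes in 5 lists, with 1 point a gene, red for higher and blue for lower at an adjusted p of at most 0.01, grey for not called and a black line for the median. Of the ERK-induced transcripts 11 of 16 were higher, against 1 of 10 ETS members, 0 of 5 other ETS genes, 2 of 12 partners and regulators and 2 of 17 genes of the cascade. The lists were chosen with earlier results of these data known.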

How the data were processed

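Per the labels and the study's methods, libraries of poly(A)-selected RNA were read on an Illumina NextSeq instrument, the reads were aligned to rn5 by TopHat2 2.0.10, and HTSeq gave a count for each RefSeq gene. The authors deposited these raw counts with no normalization. Between 47% and 49.9% of the alignments were assigned to a gene, and the summary lines of HTSeq for the rest were left out.

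Gene counts were analysed with edgeR 4.0.16 in R 4.3.3, with filterByExpr (minimum count 10), TMM, a quasi-likelihood fit of condition with replicate number as a block (the paired design of the study), and Benjamini-Hochberg adjustment over all 9740 genes. Standard errors are the log2 fold change over the square root of F, intervals cover 95%, CPM uses total gene counts and pair ratios use log2 CPM with a prior count of 2. Same-numbered samples came from 1 cell preparation, and across genes their deviations correlated with r of 0.91, 0.67 and 0.81, against -0.80 to 0.51 otherwise. No 2 samples agreed within sampling noise.

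All 10 members are named, with called genes of the fixed lists (at most 6 a list, by p) and a few others for their role, chosen after their values were seen. Members and lists were chosen with earlier results of these data known. Levels were not compared between genes, since transcript lengths were not used here. The fit was tested on simulated counts of NRG1 against mock over 9740 genes, where it recovered 192 of 200 genes planted at 2-fold, with 0 false calls. The simulated counts had a single spread for all genes and the same effect in each replicate, planted only in genes above a minimum level. These rates therefore do not carry over to genes such as Etv4 that varied more between pairs. Alternatives were no block, DESeq2 1.42.0, RLE, no filter, robust empirical Bayes, leaving out each replicate and an adjusted p of 0.05.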

Additional observations from a re-analysis of the deposited data

How the results depend on the processing

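The call of Etv5 held in every alternative that kept the pairing by replicate number. With no replicate block its log2 fold change was 1.65 (adjusted p = 0.163), and the numbers of genes called were 0 higher and 0 lower, with 1334 genes at an unadjusted p under 0.05 and a smallest edgeR adjusted p of 0.14. The cause was not tested beyond the correlation of same-numbered samples. The block changed no other call among the members. Etv4, not called at 1.05, was called with DESeq2 (1.18), RLE (1.06), no filter on low counts (1.04) and without replicate 1, and leaving out single replicates gave values from 0.76 to 1.67. Etv1 was called without replicate 2, in a range from -0.68 to -0.44. Elf1, with values from -0.21 to 0.03 when single replicates were left out, changed sign without replicate 2 (0.03). Over all genes, no filter on low counts gave 857 genes lower instead of 537, while more genes were tested (13129), and an adjusted p of at most 0.05 gave 1124 higher and 1136 lower. Leaving out single replicates gave from 408 to 590 genes higher and from 253 to 601 lower, and over 2-fold from 133 to 202 higher and from 122 to 299 lower. The median log2 fold change over all genes stayed between -0.058 and -0.016. The pair values of Etv4 spread from 0.2 to 2.17, and its level in mock replicate 2 rested on 15 counts. For every member, Etv4 included, n = 3 limits the precision of the change.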
